A study of Drosophila melanogaster with 9 samples.

Results

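The 2 kinds of induced endoreplicating cells (iECs) of this study, made by CycA dsRNA and by Myb dsRNA, were compared directly with each other, library against library, across all expressed genes. The members are the 3 CycA dsRNA and the 3 Myb dsRNA libraries, 6 of the 9 libraries of the series, and they were chosen by the names of their columns in the count table. Of the 17493 genes counted, 9231 passed the filter on low counts and were tested. The remaining 3 libraries, from cells given GFP dsRNA, are used to show the control level. All 9 were poly(A)-selected RNA-Seq libraries of S2-DGRC cells, an established line derived from Drosophila embryos, grown with 12% serum and harvested 96 h after dsRNA was added. The 12% is the labels' value for all 9 samples, whereas the study's methods give extra serum for iECs only, so that GFP dsRNA cells may also differ from both knockdowns in serum. By label the groups differ in the dsRNA: CycA dsRNA and Myb dsRNA, whose cells are labelled as induced to endoreplicate, and GFP dsRNA, against a jellyfish protein that fly cells lack, whose cells are labelled mitotic. Each gene was targeted with a single dsRNA, so that effects of that dsRNA on other transcripts cannot be told apart from loss of the targeted gene. RNA came from whole cultures, and in such bulk samples fewer cells of a type, or of a cell cycle phase, and less RNA per cell cannot be told apart.

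Cyclin A binds Cdk1, the kinase that drives entry into mitosis, and Drosophila cells that lack it can replace mitotic cycles with endocycles, in which DNA is replicated again without division. Myb is the activating subunit of Myb-MuvB, a complex bound at the promoters of many genes used in mitosis and, through its other subunits, at genes that are kept repressed, among them genes used in the germline. E2F1 with Dp is the factor that drives genes needed for S phase. The comparison asks how far cells that left the mitotic cycle by these routes differ from each other.

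The reagents are shown here by their first 150 bases as the study lists them, since a single dsRNA defines each group. The CycA dsRNA has 391 bases with 50.6% G and C, and the strand listed can be read through without a stop in its second frame for 130 codons. The Myb dsRNA has 392 bases with 51.0% G and C, and it is the complementary strand that can be read through for 130 codons. The longest run of bases that the 2 reagents share, on either strand, is 8 bases.
CycA dsRNA: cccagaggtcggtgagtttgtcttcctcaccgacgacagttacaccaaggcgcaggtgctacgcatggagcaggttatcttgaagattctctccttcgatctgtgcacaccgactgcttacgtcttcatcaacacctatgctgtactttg
Myb dsRNA: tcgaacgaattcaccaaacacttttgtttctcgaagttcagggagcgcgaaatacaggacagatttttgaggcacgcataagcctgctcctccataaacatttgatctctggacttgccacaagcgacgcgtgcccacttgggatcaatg

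Libraries held 29128930 to 42153033 counts in the CycA dsRNA group, 29154513 to 41715023 in the Myb dsRNA group and 35061391 to 44280452 in the GFP dsRNA group. The 10 most counted genes took 9.71 to 10.2% of the counts in CycA dsRNA, 8.19 to 8.55% in Myb dsRNA and 7.78 to 8.66% in GFP dsRNA libraries. Levels are given as CPM, library counts put on a common total with TMM scaling factors, and are compared between libraries for the same gene, not between genes. Within a knockdown the log2 level of a gene differed between 2 libraries with an SD of 0.224 to 0.269 over genes, and between a CycA dsRNA and a Myb dsRNA library with an SD of 0.74 to 0.771. The 10 S2 and blood cell markers summed to 1610 to 1660 CPM in CycA dsRNA, 1370 to 1460 in Myb dsRNA and 1480 to 1650 in GFP dsRNA libraries, and none of the 10 was at 0. Most of this sum came from Pvr and crq. Pvr averaged 713 CPM in CycA dsRNA, 890 in Myb dsRNA and 1080 in GFP dsRNA libraries. For crq the means were 491, 231 and 219 CPM in that order. Since these 2 moved in opposite directions, the sum says little about the other members. The 4 fat body markers summed to at most 0.667 CPM in any library, with Lsp1alpha at 0 throughout, and the glial marker repo to at most 0.0988 CPM. The 6 neuron markers summed to 45 to 50.3 CPM in CycA dsRNA, 40.8 to 43.2 in Myb dsRNA and 29.6 to 36.7 in GFP dsRNA libraries, mostly elav, and the 6 muscle markers to 51.3 to 57.3, 53.6 to 57.3 and 50.7 to 57.1 CPM in that order of groups, nearly all of it Mef2.

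Each target was low in the libraries of its own dsRNA. CycA (FBgn0000404; chromosome 3L, 11826719 to 11833578, minus strand) was at 24.1, 43.2 and 24.7 CPM in CycA dsRNA, 262, 257 and 261 CPM in Myb dsRNA and 186, 181 and 185 CPM in GFP dsRNA libraries. The groups do not overlap, and the Myb dsRNA libraries lie above the control. The direct contrast was a log2 fold change of -3.07 (SE 0.153, edgeR quasi-likelihood test, adjusted p = 3.3e-10). Myb (FBgn0002914; X, 15854832 to 15857823, minus strand) was at 165, 164 and 169 CPM in CycA dsRNA, 13.3, 15.1 and 12.8 CPM in Myb dsRNA and 224, 203 and 219 CPM in GFP dsRNA libraries. Its log2 fold change was 3.60 (SE 0.0621, edgeR quasi-likelihood test, adjusted p = 8.9e-15). Exons of Myb overlap those of CG46440 on the same strand and of CG15914 on the other, and reads of these genes could be shared.

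The transcriptomes of the iECs differed widely. Of the 9231 genes tested, 30.0% were called, that is, they passed an adjusted p of 0.05 in edgeR's quasi-likelihood test and differed by 0.5 or more, in either direction, on the log2 scale. In CycA dsRNA relative to Myb dsRNA iECs, 1426 genes (15.4%) were higher and 1339 (14.5%) were lower. The 3 libraries of one group lay entirely above or below the other 3 for 72.8% of all genes tested (34.5% higher, 38.3% lower) and for 2726 of the 2765 genes called. A further 3358 genes had an adjusted p under 0.05 with a change below the fold threshold. The median log2 fold change of all genes was -0.02, that of the genes called higher 0.93, and that of the genes called lower -0.79. Differences of at least 1 on the log2 scale were found in 624 genes that were higher and 458 that were lower.

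**Figure D1:**
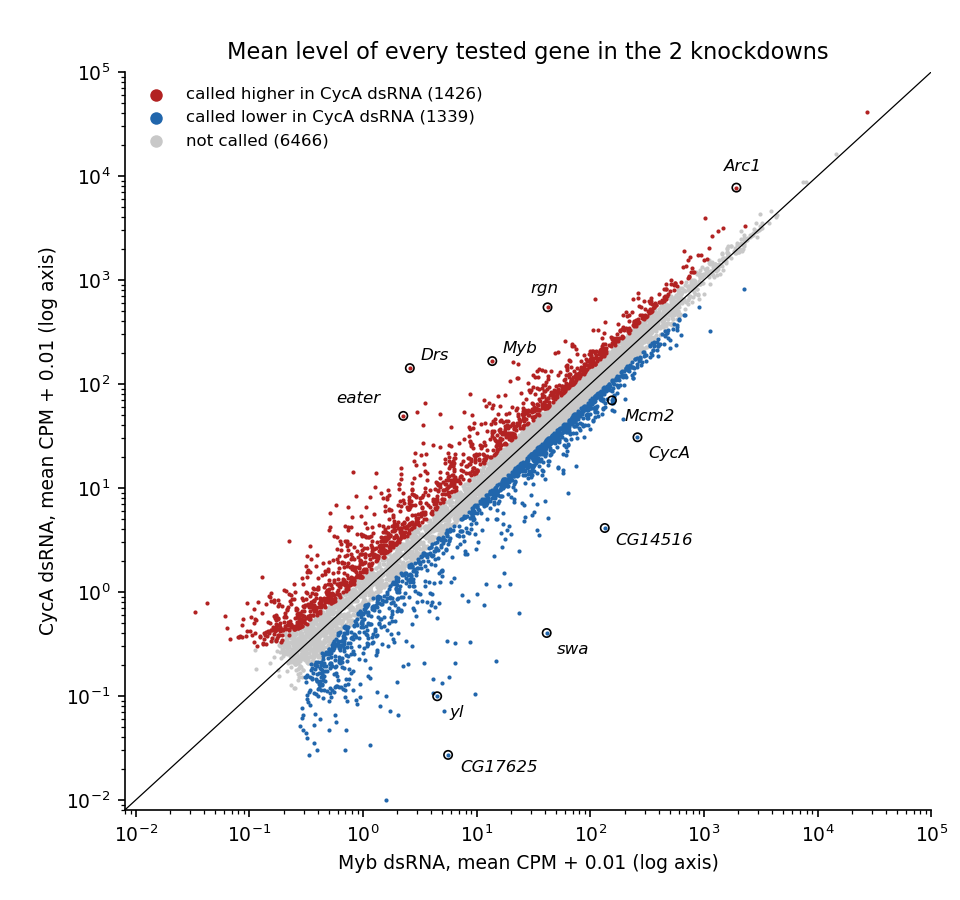
Mean CPM plus 0.01 of each of the 9231 tested genes in CycA dsRNA (y axis) and Myb dsRNA iECs (x axis), both on log axes, with genes called higher in CycA dsRNA in red (1426), called lower in blue (1339) and not called in grey. The line marks equal levels, and the circled genes include Drs, eater and the target Myb above it and swa, yl and CG17625 below it.

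The largest differences were counted in each direction. There were 25 genes higher by at least 3 on the log2 scale, with a median of 6.84 CPM in CycA dsRNA and 0.731 CPM in Myb dsRNA iECs, and 55 genes lower by at least 3, with a median of 0.127 CPM in CycA dsRNA and 4.11 CPM in Myb dsRNA iECs. Of these 55, 45 were below 1 CPM in CycA dsRNA, 14 in Myb dsRNA and 41 in GFP dsRNA cells. Of the 25, the numbers were 5, 15 and 11 in the same order. The gap between the knockdowns follows from how both sets were chosen. The X chromosome and arm 2L each held 23.6% of the 55, against 17.3% and 17.9% of all genes tested. Arm 3R held 27.3% of the 55 and 24% of all genes tested. Arms 2R and 3L held 12.7% and 10.9% of the 55, against 20.1% and 18.8% of all genes tested. These shares were not tested. By arm, the share of tested genes that was lower ran from 11.6% on 3L to 16.7% on 2L among the large arms, and was 25.0% (23 of 92) on the small chromosome 4. Of the 14 mitochondrial genes tested, 7 were higher and 0 lower, with a median log2 fold change of 0.50. In 4 classes of exon length with about equal numbers of genes, 14.8 to 16.5% of genes were higher and 13.6 to 15.8% lower, close to the shares over all genes. Noncoding RNA genes were higher in 22.7% and lower in 16.7% of 472.

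Immune genes led the genes that were higher in CycA dsRNA iECs. Drs, which encodes the antifungal peptide drosomycin, was at 129, 169 and 128 CPM in CycA dsRNA, 2.84, 2.58 and 2.31 CPM in Myb dsRNA and 1.73, 2.6 and 2.32 CPM in GFP dsRNA libraries. Myb dsRNA and GFP dsRNA libraries overlap, and CycA dsRNA libraries lie far above both. The log2 fold change was 5.78 (SE 0.135, edgeR quasi-likelihood test, adjusted p = 2.4e-13). It was the largest among genes higher in CycA dsRNA that averaged 50 counts or more over the 6 knockdown libraries. AttD, an attacin, had 52.9, 59.1 and 49.2 CPM in CycA dsRNA, 3.2, 2.42 and 3.29 CPM in Myb dsRNA and 5.2, 5.63 and 5.29 CPM in GFP dsRNA libraries (log2 fold change 4.15, SE 0.0961). Mtk, the peptide metchnikowin, had 6.76, 5.09 and 5.23 CPM in CycA dsRNA, 0.617, 0.555 and 0.336 CPM in Myb dsRNA and 1.62, 1.73 and 1.46 CPM in GFP dsRNA libraries (log2 fold change 3.48, SE 0.188). For both, Myb dsRNA libraries lie below the control and CycA dsRNA libraries above it.

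Of 18 antimicrobial peptide genes listed, 10 passed the filter and were called higher, with log2 fold changes of 1.78 (AttA) to 5.78 and a median of 2.53, against -0.02 over all genes. The other 8 were too low to test, and a gene of this list could pass the filter through its CycA dsRNA libraries alone. The cecropins CecA1, CecA2 and CecB had log2 fold changes of 2.27, 2.64 and 2.64, DptB, a diptericin, 2.14 and Dro, drosocin, 2.42. CecB had 4.84, 4.32 and 3.74 CPM in CycA dsRNA, 0.686, 0.751 and 0.624 CPM in Myb dsRNA and 2, 0.75 and 1.2 CPM in GFP dsRNA libraries, so that the Myb dsRNA and GFP dsRNA ranges just touch. AttA and AttB, and the cecropins among themselves, are close copies that can share reads. The GFP dsRNA mean lay between the 2 knockdowns for 9 of the 10. Summed over the list, the level was 228 ± 28.3 CPM in CycA dsRNA, 11.9 ± 0.931 CPM in Myb dsRNA and 21.1 ± 1.35 CPM in GFP dsRNA cells (mean ± SD, n = 3 each).

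Toll and Imd are the pathways that turn these peptide genes on, from recognition proteins through adaptors and kinases to the NF-kappaB factors. Of 30 tested genes, 13 were higher (43.3%, against 15.4% of all genes) and 0 lower, with a median log2 fold change of 0.46. The genes called include recognition proteins, proteases and a factor. Among recognition proteins, PGRP-SA was at 118, 106 and 93.4 CPM in CycA dsRNA, 20.5, 18.1 and 20 CPM in Myb dsRNA and 35.1, 34.8 and 31.6 CPM in GFP dsRNA libraries (log2 fold change 2.43, SE 0.0787). PGRP-SD had 44.9, 42 and 39.9 CPM in CycA dsRNA, 9.44, 8.88 and 9.85 CPM in Myb dsRNA and 24.1, 27.8 and 25.3 CPM in GFP dsRNA libraries (log2 fold change 2.16, SE 0.0693). Myb dsRNA libraries were thus the lowest of the 3 groups for both of these receptors of the Toll branch. PGRP-LC, the membrane receptor of Imd, followed the same order with 75.4, 70.9 and 70.7 CPM in CycA dsRNA, 27.8, 26.7 and 27.2 CPM in Myb dsRNA and 43.3, 43.8 and 44 CPM in GFP dsRNA libraries (log2 fold change 1.41, SE 0.0434).

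Other recognition proteins were not called, among them PGRP-LE (-0.07), GNBP1 (0.27) and GNBP3 (0.45). Of the proteases upstream of Toll, modSP was higher by 1.56 and grass by 1.37 on the log2 scale and SPE was not called (-0.15), and the ligand spz was higher by 0.60. The receptor Tl was at 34.5, 31.9 and 34 CPM in CycA dsRNA, 11, 9.47 and 9.7 CPM in Myb dsRNA and 15, 12.4 and 13.2 CPM in GFP dsRNA libraries (log2 fold change 1.73, SE 0.0757). The NF-kappaB factor Rel had 335, 328 and 337 CPM in CycA dsRNA, 183, 189 and 175 CPM in Myb dsRNA and 196, 197 and 197 CPM in GFP dsRNA libraries (log2 fold change 0.87, SE 0.0414). The inhibitor of Imd signalling pirk, itself a target of that pathway, was at 49.1, 51.1 and 53.9 CPM in CycA dsRNA, 15.5, 15 and 15.9 CPM in Myb dsRNA and 21.7, 20.3 and 20.5 CPM in GFP dsRNA libraries (log2 fold change 1.73, SE 0.0531). The adaptors and kinases Myd88, tub, imd, Fadd, Tak1, Tab2, key and IKKbeta, the caspase Dredd, and the factors dl and Dif were not called. Their log2 fold changes ran from -0.18 (Myd88) to 0.47 (IKKbeta), while the kinase pll was higher by 0.63. The inhibitor of dl and Dif, cact, was not called at 0.28.

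Receptors with which blood cells take up microbes and dead cells were also higher. The phagocytic receptor eater was at 51.8, 45.5 and 50.7 CPM in CycA dsRNA, 2.13, 2.15 and 2.47 CPM in Myb dsRNA and 2.97, 3.06 and 3.26 CPM in GFP dsRNA libraries, a log2 fold change of 4.45 (SE 0.0813, edgeR quasi-likelihood test, adjusted p = 1.4e-14). The surface protein He, hemese, had 14.3, 12.6 and 15.6 CPM in CycA dsRNA, 0.846, 0.914 and 0.648 CPM in Myb dsRNA and 0.585, 0.519 and 0.401 CPM in GFP dsRNA libraries (log2 fold change 4.15, SE 0.135). The engulfment receptor drpr had 127, 120 and 118 CPM in CycA dsRNA, 32, 31.6 and 30.6 CPM in Myb dsRNA and 24.6, 21.2 and 23.3 CPM in GFP dsRNA libraries (log2 fold change 1.95, SE 0.0523). In these 3 genes the CycA dsRNA libraries lie far above both other groups, and the Myb dsRNA libraries lie below the control for eater and above it for He and drpr. Of 31 listed genes, 21 passed the filter, which a gene could do through its CycA dsRNA libraries alone. Of these 21, 12 were higher (57.1%, against 15.4% of all genes) and 1, Sr-CII, was lower (-0.52). The thioester protein Tep2 had 102, 87.7 and 91.9 CPM in CycA dsRNA, 32, 30.5 and 30.4 CPM in Myb dsRNA and 56.5, 48.9 and 47.7 CPM in GFP dsRNA libraries (log2 fold change 1.60). The GATA factor srp, which specifies these cells, and its partner ush had log2 fold changes of -0.04 and 0.01, and the growth factor receptor Pvr, not called, had -0.32.

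**Figure D2:**
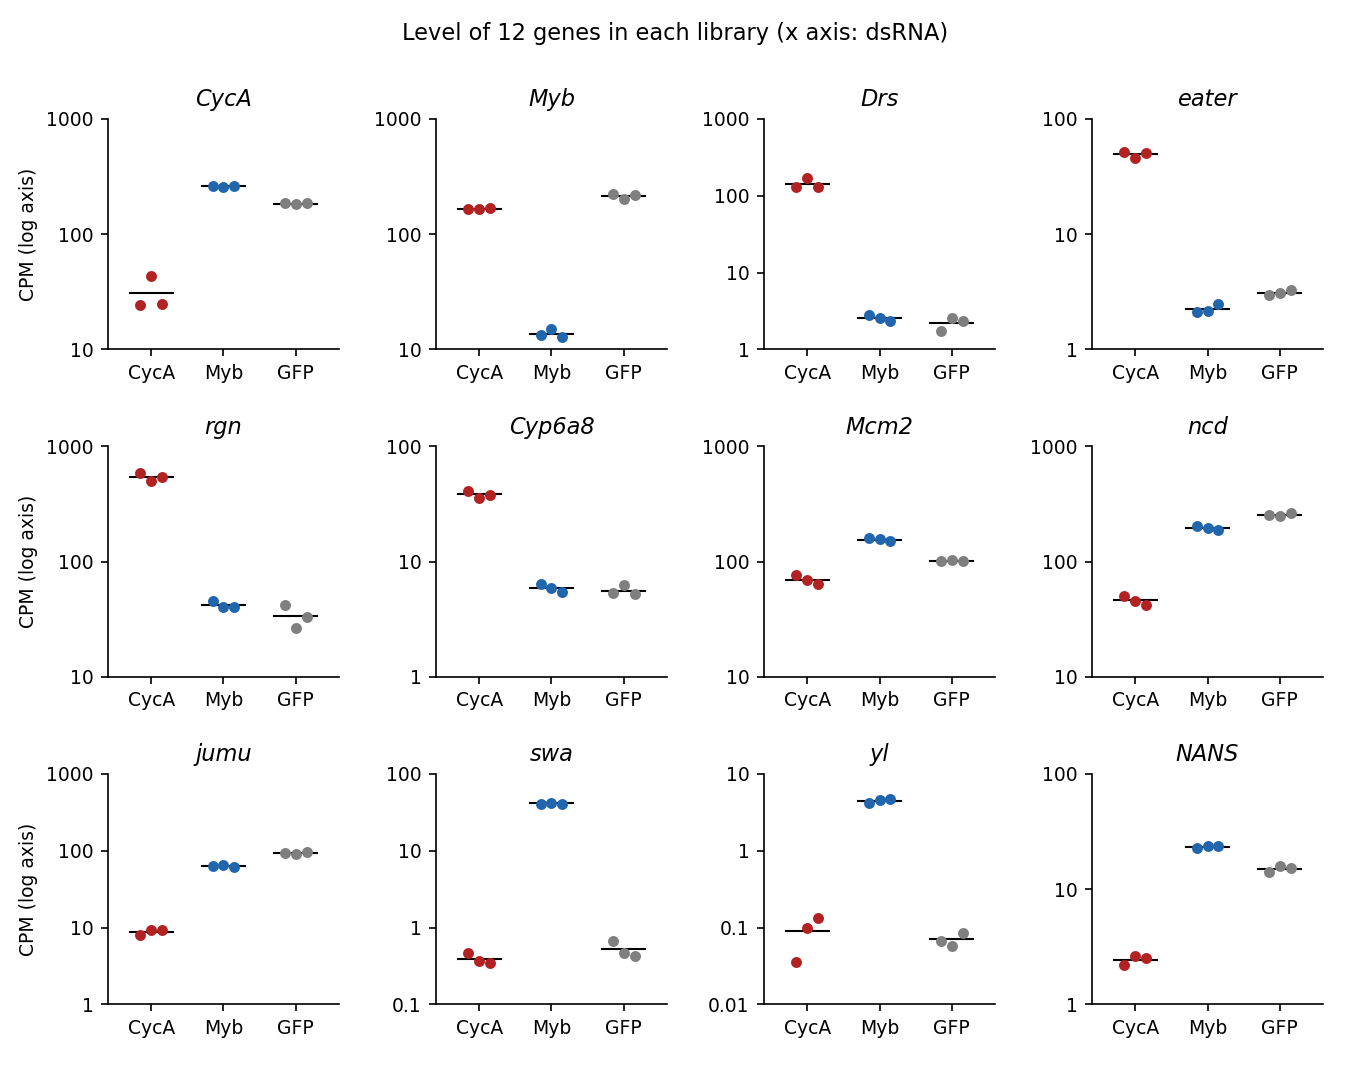
CPM (log axis) of 12 genes in each of the 3 CycA dsRNA (red), 3 Myb dsRNA (blue) and 3 GFP dsRNA libraries (grey), with a bar at the mean of each group. The CycA dsRNA libraries of Drs (128 to 169 CPM) and eater (45.5 to 51.8 CPM) stand above both other groups, whereas for swa the Myb dsRNA libraries (40.7 to 42.1 CPM) stand above both others.

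Several of the most different genes lie outside these lists. rgn, regeneration, a lectin-like gene named for its role in disc regrowth, was at 587, 505 and 545 CPM in CycA dsRNA, 45.2, 40.6 and 40.2 CPM in Myb dsRNA and 42.3, 26.4 and 32.9 CPM in GFP dsRNA libraries (log2 fold change 3.70, SE 0.123). ringer, which belongs to a family of microtubule-binding proteins and was chosen after its values were seen, had 15.6, 14 and 12.4 CPM in CycA dsRNA, 1.46, 1.21 and 1.18 CPM in Myb dsRNA and 2.16, 1.59 and 1.03 CPM in GFP dsRNA libraries (log2 fold change 3.43). The remaining genes among the 12 largest changes carry only CG numbers. They are CG18557 (log2 fold change 4.20), CG34331 (3.92), CG14419 (3.62), CG10359 (3.58) and CG10232 (3.44), and only for CG10232 did the GFP dsRNA libraries, at 15.3, 14.5 and 14.2 CPM, lie well above the Myb dsRNA libraries, at 5.01, 4.41 and 4.68 CPM.

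Among highly counted genes, Arc1, a capsid-like RNA-binding protein related to retroviral Gag, was at 7180, 7930 and 8080 CPM in CycA dsRNA, 1890, 1970 and 1950 CPM in Myb dsRNA and 2240, 2490 and 2350 CPM in GFP dsRNA libraries (log2 fold change 2.00, SE 0.0646). The oligopeptide transporter yin had 4310, 3770 and 3710 CPM in CycA dsRNA, 1040, 1050 and 1000 CPM in Myb dsRNA and 1720, 1710 and 1720 CPM in GFP dsRNA libraries (log2 fold change 1.93, SE 0.0623). In both genes the Myb dsRNA libraries lie below every control library. The lysosomal genes Sap-r (1.11) and Cp1, a cathepsin (1.17), were also in this group. The mitochondrial large ribosomal RNA, mt:lrRNA, had 39000, 39900 and 43800 CPM in CycA dsRNA, 26400, 25800 and 28700 CPM in Myb dsRNA and 22600, 27600 and 26300 CPM in GFP dsRNA libraries (log2 fold change 0.60, SE 0.0865), and the cytochrome oxidase subunit mt:CoIII had 0.52, a call that is lost without CycA dsRNA replicate 3 or without Myb dsRNA replicate 1.

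Of 28 genes of the extracellular matrix and its receptors, 13 were higher (46.4%, against 15.4% of all genes), 3 lower and 12 not called, with a median log2 fold change of 0.40. SPARC, a collagen-binding matrix protein, was at 811, 764 and 694 CPM in CycA dsRNA, 262, 264 and 265 CPM in Myb dsRNA and 515, 539 and 482 CPM in GFP dsRNA libraries, so that the knockdowns lie on either side of the control (log2 fold change 1.52, SE 0.06). The matrix metalloproteinases Mmp1 and Mmp2 were higher by 1.39 and 1.28. Mmp1 had 114, 107 and 113 CPM in CycA dsRNA, 44.1, 41.4 and 41.4 CPM in Myb dsRNA and 34.6, 32.5 and 32 CPM in GFP dsRNA libraries. Integrin subunits divided: the beta subunit mys (1380, 1270 and 1340 CPM in CycA dsRNA, 657, 668 and 629 CPM in Myb dsRNA, 703, 593 and 678 CPM in GFP dsRNA libraries) was higher by 1.03, and scb, ItgaPS4, ItgaPS5 and Itgbn were higher by 1.11, 0.58, 1.54 and 1.39, whereas the alpha subunit if was lower (-0.79) and mew was not called (-0.14). The basement membrane genes Ndg (-1.85) and Col4a1 (-0.65) were lower and the laminin LanB1 was higher (0.60).

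Many detoxification enzymes were higher, though most members of the larger families were not called higher. Cytochromes P450 oxidise foreign compounds and hormones, and of 54 tested 24 were higher (44.4%, against 15.4% of all genes) and 4 lower, with a median log2 fold change of 0.36. Cyp6a8 was at 40.7, 35.8 and 38.1 CPM in CycA dsRNA, 6.38, 5.88 and 5.43 CPM in Myb dsRNA and averaged 5.6 ± 0.55 CPM (SD, n = 3) in GFP dsRNA libraries (log2 fold change 2.69, SE 0.0783), with no separation of Myb dsRNA from GFP dsRNA libraries. Cyp12e1 (2.49) and Cyp6w1 (2.30) followed. The 4 that were lower were Cyp309a1 (-2.30), Cyp6g1 (-0.93), Cyp4ae1 (-0.73) and Cyp4s3 (-0.57), and 2 were left with DESeq2, without a filter on low counts or without CycA dsRNA replicate 1, and 0 with a minimum count of 50. Of the 31 glutathione transferases tested, which conjugate such compounds, 14 were higher (45.2%) and 1 lower, with a median of 0.44. GstE2 had 21.7, 19.8 and 22.7 CPM in CycA dsRNA, 3.77, 3.56 and 3.29 CPM in Myb dsRNA and 5.8, 5.22 and 6.38 CPM in GFP dsRNA libraries (log2 fold change 2.59, SE 0.0886). The exception was GstE1, which was at 0.392, 0.222 and 0.32 CPM in CycA dsRNA, 1.26, 1.04 and 0.937 CPM in Myb dsRNA and 0.157, 0.115 and 0.0858 CPM in GFP dsRNA libraries (-1.83). Of 17 UDP-glycosyltransferases listed, 4 passed the filter and 3 of these were higher. The P450 and glutathione transferase lists held 85 and 35 genes, of which those too low to test are left out. A gene of these 3 lists could pass the filter through its CycA dsRNA libraries alone. Many P450 and transferase genes lie in clusters of close copies that can share reads.

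Small heat shock proteins, chaperones that hold unfolded proteins, were higher as well. Hsp23 was at 209, 194 and 189 CPM in CycA dsRNA, 46.9, 45.9 and 53 CPM in Myb dsRNA and 43, 53.5 and 58 CPM in GFP dsRNA libraries (log2 fold change 2.02, SE 0.0874), and Hsp26 and Hsp27 were higher by 1.31 and 1.20. Of 21 heat shock and unfolded protein response genes, 8 were higher (38.1%, against 15.4% of all genes) and 0 lower, and all 8 encode heat shock proteins. The unfolded protein response genes Xbp1, Ire1, PEK, Atf6 and crc were not called, with log2 fold changes of 0.00 (PEK) to 0.37 (Ire1), nor was the general chaperone Hsp83 (0.09). Copies of Hsp70 are nearly identical and their separate counts are uncertain. Of 14 glycolysis genes, 5 were higher (35.7%, against 15.4% of all genes) and 0 lower. Lactate dehydrogenase, Ldh, was at 589, 1070 and 789 CPM in CycA dsRNA, 362, 452 and 564 CPM in Myb dsRNA and 1020, 1300 and 1290 CPM in GFP dsRNA libraries (log2 fold change 0.83, SE 0.182, edgeR quasi-likelihood test, adjusted p = 0.001). The replicates of Ldh spread widely, and the lowest CycA dsRNA library lies just above the highest Myb dsRNA library. The GFP dsRNA mean lay above both knockdowns in 3 of these 5 genes.

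Among signalling genes, a few were higher while most of each list was not called. The cytokines upd2 and upd3, ligands of JAK-STAT, were at 15.2, 12.6 and 14.1 CPM and at 12.9, 12.1 and 13.6 CPM in CycA dsRNA, and at 3.48, 3.79 and 3.72 CPM and 5.12, 5.78 and 6.22 CPM in Myb dsRNA libraries (log2 fold changes 1.93 and 1.17). In GFP dsRNA libraries upd2 was at 4.27, 3.75 and 3.6 CPM and upd3 at 5.26, 4.93 and 6.58 CPM, which overlaps the Myb dsRNA range for both. Socs36E, a target and inhibitor of the pathway, was higher by 0.61, whereas the receptor dome, the kinase hop and the factor Stat92E had -0.02, -0.10 and -0.06. No JNK pathway gene of the list was called, with puc, a target that reads out JNK activity, at 0.26. Of 25 insulin, Tor and Hippo genes, 0 were higher and 1, the protocadherin ds (-2.40), was lower at under 1 CPM in every library. Among 16 ecdysone response genes, ImpE3 (2.16), vri (0.90), Eip74EF (0.78) and Eip93F were higher and Eip78C (-1.05) was lower. The receptor genes EcR (-0.03) and usp (0.30) were not called. The share that was higher was 20.0% of 15 JNK and JAK-STAT genes and 25.0% of the ecdysone genes, against 15.4% of all genes. In the same order 0 and 6.25% were lower, against 14.5% of all genes. The 2 shares of higher genes rest on 3 and 4 genes, so that neither list as a whole is a result. The insulin, Tor and Hippo list held a smaller share in each direction than all genes.

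Of 25 DNA damage and cell death genes tested, 3 were higher and 2 lower, a smaller share in each direction than the 15.4% and 14.5% of all genes, so that the list as a whole is not a result. The TNF ligand egr was at 145, 118 and 134 CPM in CycA dsRNA, 49.7, 43.5 and 41 CPM in Myb dsRNA and 62.2, 55.9 and 55.4 CPM in GFP dsRNA libraries (log2 fold change 1.56, SE 0.0803). The initiator caspase Dronc had 70.9, 72.1 and 76 CPM in CycA dsRNA, 41, 42.9 and 42.1 CPM in Myb dsRNA and 41.4, 44.4 and 45.9 CPM in GFP dsRNA libraries (0.80), and the death inducer rpr had 139, 150 and 159 CPM in CycA dsRNA, 101, 103 and 101 CPM in Myb dsRNA and 108, 100 and 101 CPM in GFP dsRNA libraries (0.56). The effector caspases Drice (-0.23) and Dcp-1 (-0.09), p53 (-0.10) and the inhibitors Diap1 (0.10) and Diap2 (0.15) were not called. Neither were the death inducer hid (0.21), the Dronc adaptor Dark (0.35) and the egr receptor grnd (-0.18). The 2 that were lower were the checkpoint kinase lok, the fly Chk2, with 34.3, 33.9 and 32.9 CPM in CycA dsRNA, 72.9, 69.8 and 69.9 CPM in Myb dsRNA and 59.6, 62.6 and 57.5 CPM in GFP dsRNA libraries (-1.07), and the helicase Blm (-0.55).

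**Figure D3:**
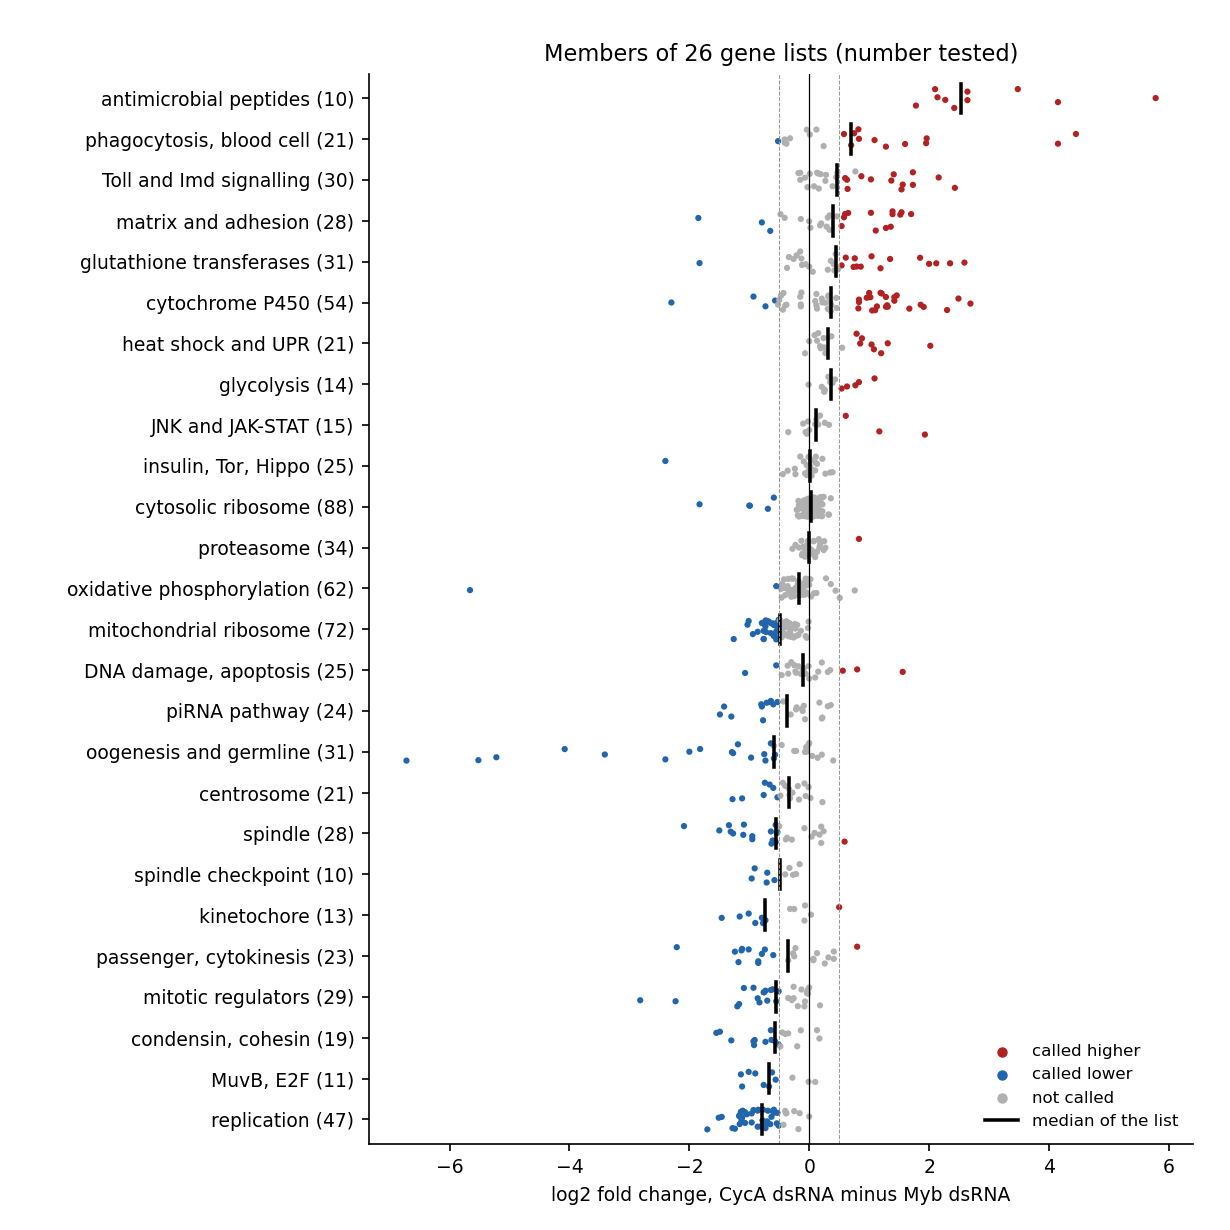
Log2 fold change (x axis, CycA dsRNA minus Myb dsRNA) of each tested member of 26 gene lists, with the number tested in brackets, the median as a black bar and dashed lines at -0.5 and 0.5. Members called higher are red, called lower blue and not called grey, and medians run from 2.53 for antimicrobial peptides to -0.78 for replication.

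Genes of DNA replication were the most uniform group in the other direction. Of 47 tested, 39 were lower in CycA dsRNA iECs (83.0%, against 14.5% of all genes) and 0 higher, with a median log2 fold change of -0.78. The libraries did not overlap, lower in CycA dsRNA, for 46, against 38.3% of all genes. Licensing of origins begins with ORC, Cdc6 and dup, the fly Cdt1, which load the Mcm helicase. dup was at 60.2, 54.2 and 55.7 CPM in CycA dsRNA, 161, 159 and 148 CPM in Myb dsRNA and 81.3, 78.5 and 77.7 CPM in GFP dsRNA libraries (log2 fold change -1.46, SE 0.0486, edgeR quasi-likelihood test, adjusted p = 5.3e-12). Orc1 had 37.6, 33.9 and 31.3 CPM in CycA dsRNA, 61.9, 64.4 and 59.3 CPM in Myb dsRNA and 40.7, 37.6 and 37 CPM in GFP dsRNA libraries (-0.86). The 6 helicase subunits Mcm2, Mcm3, dpa, Mcm5, Mcm6 and Mcm7 moved alike, with log2 fold changes of -1.24 (Mcm7) to -1.11 (Mcm6). Mcm2 had 75.9, 69.3 and 63.4 CPM in CycA dsRNA, 159, 156 and 151 CPM in Myb dsRNA and 101, 104 and 101 CPM in GFP dsRNA libraries. For dup and Mcm2 the control lies between the knockdowns, and for Orc1 the GFP dsRNA libraries overlap those of CycA dsRNA.

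At the fork, the clamp PCNA was at 357, 333 and 312 CPM in CycA dsRNA, 585, 559 and 582 CPM in Myb dsRNA and 328 to 350 CPM in GFP dsRNA libraries (log2 fold change -0.78, SE 0.053), so that CycA dsRNA and GFP dsRNA libraries overlap and Myb dsRNA libraries stand above both. The clamp loader subunit RfC3 had the largest change of the list, with 12.1, 12.3 and 12.1 CPM in CycA dsRNA, 41.1, 38 and 39.7 CPM in Myb dsRNA and 26.4, 29.7 and 28.6 CPM in GFP dsRNA libraries (-1.70, SE 0.0579). The polymerase subunits listed had log2 fold changes of -0.81 (DNApol-alpha60) to -0.61 (DNApol-delta), and the 2 subunits of ribonucleotide reductase, RnrL and RnrS, which makes deoxynucleotides, -0.59 and -0.65. The S phase kinase Cdk2 had 12.5, 13.6 and 13.5 CPM in CycA dsRNA, 38.2, 38 and 37.3 CPM in Myb dsRNA and 24.2, 24.7 and 22.1 CPM in GFP dsRNA libraries (-1.51). Its partner CycE had 67.5, 64.2 and 72.5 CPM in CycA dsRNA, 110, 105 and 101 CPM in Myb dsRNA and 55.6, 47.8 and 52 CPM in GFP dsRNA libraries (-0.63), above the control in both knockdowns. Their inhibitor dap was also lower (-1.28). Members that were not called include Psf2 (0.00) and Psf3 (-0.16) of the GINS complex and the kinase pair Cdc7 (-0.25) and chif (-0.18). The GFP dsRNA mean lay between the knockdowns for 33 of the 39 genes called and below both for 6.

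Most of the MuvB and E2F genes, whose products govern many of these genes, were lower as well. Of 11 tested, 8 were lower, against 14.5% of all genes, and 0 higher. E2f1 had 288, 291 and 306 CPM in CycA dsRNA, 266, 283 and 280 CPM in Myb dsRNA and 319, 258 and 295 CPM in GFP dsRNA libraries, and was not called (log2 fold change 0.10, SE 0.0638), nor were the repressor E2f2 (-0.01) and l(3)mbt (-0.28). The MuvB subunits mip120, mip130, lin-52 and mip40 had log2 fold changes of -1.14, -0.90, -1.01 and -0.76, and Dp, the partner of both E2Fs, and the pocket proteins Rbf and Rbf2 -0.67, -0.56 and -1.12. mip120 was at 33.8, 34.5 and 33.3 CPM in CycA dsRNA, 76.4, 78 and 70.3 CPM in Myb dsRNA and 66.6, 61.5 and 66.7 CPM in GFP dsRNA libraries. The Myb dsRNA libraries of mip120 lie above the control and the CycA dsRNA libraries far below it. The GFP dsRNA mean lay between the knockdowns in 7 of the 8 genes called.

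Many genes of mitosis were lower in CycA dsRNA iECs, and the control level of most of these lay above both knockdowns. Of 29 tested mitotic regulators, 16 were lower (55.2%, against 14.5% of all genes) and 0 higher (median log2 fold change -0.55), with the GFP dsRNA mean above both knockdowns for 11 of the 16. The kinase polo had 48.6, 54.2 and 52.3 CPM in CycA dsRNA, 99, 102 and 95.8 CPM in Myb dsRNA and 221, 215 and 213 CPM in GFP dsRNA libraries (-0.93, SE 0.047). CycB, the other mitotic cyclin with a role in entry, had 81.7, 94.8 and 87.4 CPM in CycA dsRNA, 137, 133 and 141 CPM in Myb dsRNA and 240, 237 and 244 CPM in GFP dsRNA libraries (-0.64). The 3 groups formed separate steps for both genes. fzy, the fly Cdc20 that activates the anaphase-promoting complex, had 38.8, 35.5 and 33.8 CPM in CycA dsRNA, 82.3, 82.5 and 77.3 CPM in Myb dsRNA and 109, 105 and 106 CPM in GFP dsRNA libraries (-1.17), and its interphase counterpart fzr was not called (-0.13). Core subunits of that complex were not called either, Cdc16 at -0.07, Cdc23 at -0.29, Cdc27 at -0.26 and shtd at 0.18, nor was Cdk1 (-0.35).

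The largest changes of this list were in jumu, a forkhead transcription factor, and bora, the activator of Aurora A. jumu was at 8.04, 9.16 and 9.4 CPM in CycA dsRNA, 62.6, 65.9 and 61.1 CPM in Myb dsRNA and 94.2, 89.5 and 96 CPM in GFP dsRNA libraries (log2 fold change -2.82, SE 0.0605, edgeR quasi-likelihood test, adjusted p = 9.9e-14). bora had 4.34, 3.48 and 4.06 CPM in CycA dsRNA, 19.6, 17.9 and 17.6 CPM in Myb dsRNA and 28.7, 29 and 29 CPM in GFP dsRNA libraries (-2.23, SE 0.0803). In both, the Myb dsRNA libraries lie much nearer to the control than the CycA dsRNA libraries do. Exons of fzy overlap those of cact on the other strand.

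Kinetochore genes summed to 230 ± 0.825 CPM in CycA dsRNA, 375 ± 4.06 CPM in Myb dsRNA and 546 ± 36.9 CPM in GFP dsRNA cells (mean ± SD, n = 3 each), the same order as the mitotic regulators. Of 13 tested, 7 were lower (53.8%, against 14.5% of all genes). Spc105R, the scaffold of the outer kinetochore, had 21.4, 21.6 and 20.3 CPM in CycA dsRNA, 55.2, 61.7 and 56.9 CPM in Myb dsRNA and 81.3, 63.7 and 76.2 CPM in GFP dsRNA libraries (log2 fold change -1.46, SE 0.0799). The 3 tested subunits of the Ndc80 complex, Ndc80, Nuf2 and Spc25, had -1.01, -0.79 and -0.90. The centromere proteins cid, cal1 and Cenp-C had -0.73, -0.77 and -1.16. The Mis12 complex differed from these: Mis12 (-0.25), Nnf1b (-0.07) and Kmn1 (0.03) were not called, and Nnf1a, at 5.41, 5.53 and 6.01 CPM in CycA dsRNA, 4.02, 3.98 and 3.99 CPM in Myb dsRNA and 19, 21.4 and 20.5 CPM in GFP dsRNA libraries, was higher at the threshold (0.50). The call of Nnf1a is lost when any of the Myb dsRNA or GFP dsRNA libraries, or CycA dsRNA replicate 3, is left out. Kmn1 lay far below its control level of 16.3, 17.4 and 17.6 CPM in every library of both knockdowns.

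**Figure D4:**
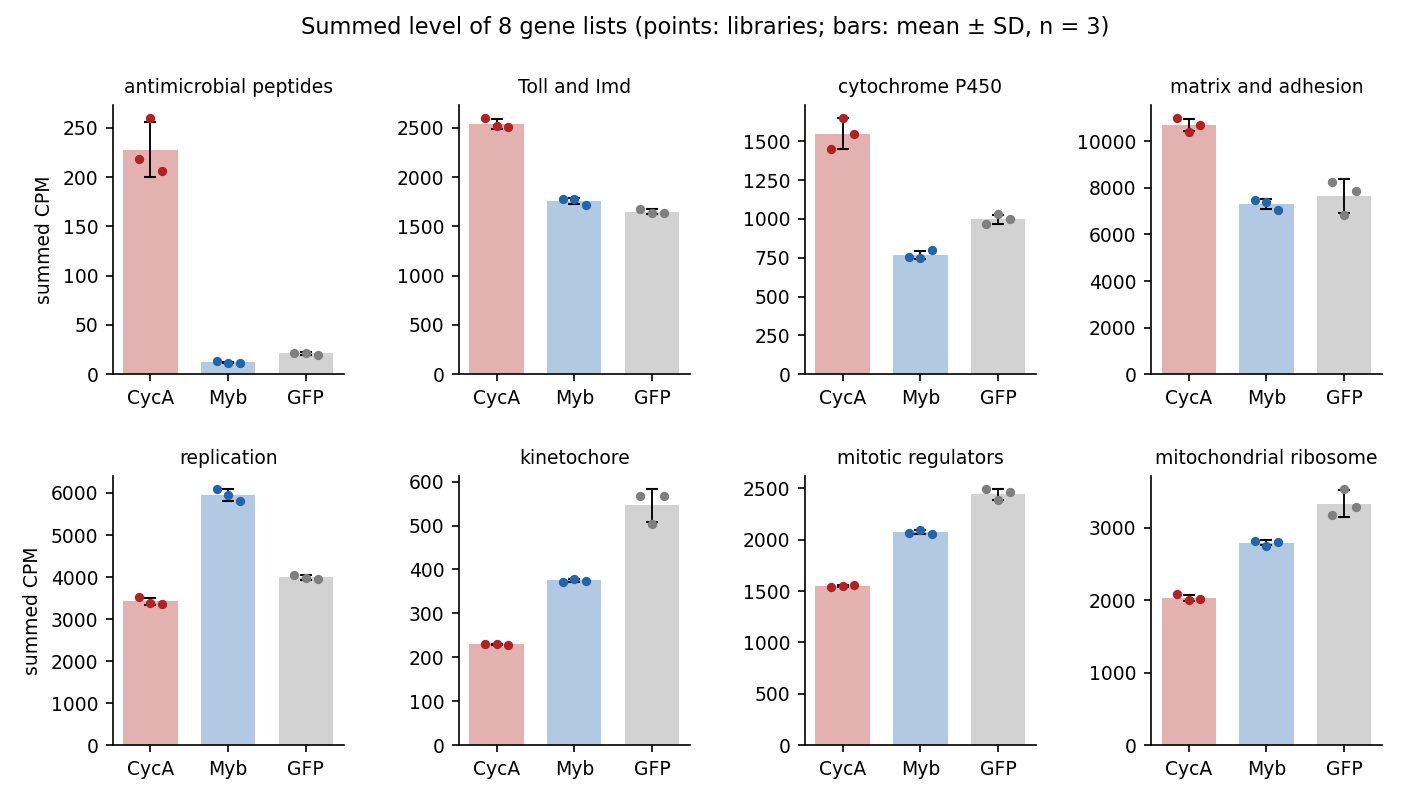
Summed CPM (y axes from 0) of the listed genes of 8 lists in CycA dsRNA (red), Myb dsRNA (blue) and GFP dsRNA cells (grey), as points for the 3 libraries of each group, bars for the mean and whiskers for the SD. Replication genes sum to 3420 ± 91.4 CPM in CycA dsRNA, 5950 ± 141 in Myb dsRNA and 3990 ± 53.7 in GFP dsRNA, so that Myb dsRNA is highest, whereas mitotic regulators, at 1550 ± 12.3, 2070 ± 18.7 and 2440 ± 50.9 CPM in the same order, are highest in GFP dsRNA.

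The chromosomal passenger and cytokinesis genes summed to 5510 ± 110 CPM in CycA dsRNA, 5350 ± 40.9 CPM in Myb dsRNA and 5800 ± 13 CPM in GFP dsRNA cells (mean ± SD, n = 3 each). Most of that sum came from 2 actin regulators. In the same order of groups, tsr had means of 2150, 1970 and 1910 CPM and chic of 1420, 1140 and 1180 CPM. The order of the sum therefore says little about the other members. Of the 4 subunits of the passenger complex, aurB, Incenp and borr were lower, with log2 fold changes of -1.12, -1.24 and -1.18, and Det, the fly survivin, was not called (-0.27). aurB, the Aurora B kinase, was at 15.3, 14.5 and 14.5 CPM in CycA dsRNA, 32, 31.9 and 32.2 CPM in Myb dsRNA and 63.2, 67.7 and 64.9 CPM in GFP dsRNA libraries. tum, the RacGAP of the central spindle, had 17.9, 16.2 and 14.6 CPM in CycA dsRNA, 76.3, 75.8 and 72.5 CPM in Myb dsRNA and 133, 131 and 132 CPM in GFP dsRNA libraries (-2.21, SE 0.0587), while its kinesin partner pav differed less, with 26.2, 23.9 and 23.3 CPM in CycA dsRNA, 41.2, 42.4 and 38.6 CPM in Myb dsRNA and 131, 121 and 133 CPM in GFP dsRNA libraries (-0.74). Both partners were far below the control in CycA dsRNA, but in Myb dsRNA iECs tum kept more of its control level than pav did. Of 23 tested genes, 11 were lower (47.8%, against 14.5% of all genes) and 1 was higher, nuf (0.80), an effector of membrane delivery to the furrow. CG7341 (0.07) was not called, nor were the actin regulators chic (0.32) and tsr (0.13), which cells also use outside mitosis.

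Of 28 spindle motors and microtubule-associated proteins, 16 were lower (57.1%, against 14.5% of all genes) and 1, tacc (0.59), was higher. The minus-end kinesin ncd had 50, 45.8 and 42.3 CPM in CycA dsRNA, 204, 194 and 188 CPM in Myb dsRNA and 255, 250 and 263 CPM in GFP dsRNA libraries (log2 fold change -2.09, SE 0.0579), and exons of it overlap those of CG7789 and ca on the other strand. Klp67A, a kinesin that shortens microtubules, had 11.3, 10.7 and 10.9 CPM in CycA dsRNA, 30.8, 31.3 and 31 CPM in Myb dsRNA and 72.3, 64.1 and 69 CPM in GFP dsRNA libraries (-1.50). Of the augmin subunits, which branch microtubules, dgt2, dgt4, dgt5 and msd1 were lower by -0.54, -1.10, -0.63 and -0.61 and dgt3, dgt6, wac and msd5 were not called. Microtubule proteins with roles in interphase, Eb1 (0.20), msps (0.20) and chb (0.24), were not called. The spindle checkpoint had 5 of 10 genes lower, from Spindly (-0.96) to BubR1 (-0.58), and the libraries did not overlap for all 10, against 38.3% of all genes that did not overlap and were lower. The centrosome list had 7 of 21 lower, led by spd-2 (-1.28) and Cep135 (-1.12), with the gamma-tubulin ring subunits not called.

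Condensin compacts chromosomes for mitosis, and its subunits were lower in CycA dsRNA iECs, but with another control level. glu, the Smc4 subunit, had 57.4, 53 and 55.8 CPM in CycA dsRNA, 164, 167 and 156 CPM in Myb dsRNA and 133, 111 and 127 CPM in GFP dsRNA libraries (log2 fold change -1.55, SE 0.0614), and SMC2 had 52.3, 50.1 and 52.7 CPM in CycA dsRNA, 130, 127 and 124 CPM in Myb dsRNA and 107, 97.8 and 106 CPM in GFP dsRNA libraries (-1.30, SE 0.0455). In both genes the control lies between the knockdowns. Of 19 condensin and cohesin genes, 11 were lower (57.9%, against 14.5% of all genes) and 0 higher, and the GFP dsRNA mean was between the knockdowns for 9 of the 11. Of the cohesin ring, SMC1 (-0.51) and SA (-0.64) were called and SMC3 (-0.48) and vtd (0.13) were not.

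Genes best known from oogenesis were among the largest differences in this direction. swa, swallow, which localises bicoid mRNA in the oocyte, was at 0.463, 0.37 and 0.347 CPM in CycA dsRNA, 40.7, 42.1 and 41 CPM in Myb dsRNA and 0.675, 0.462 and 0.429 CPM in GFP dsRNA libraries (log2 fold change -6.72, SE 0.107, edgeR quasi-likelihood test, adjusted p = 5.8e-15). The neighbouring pseudogene swaPsi, chosen after its values were seen, had -3.98, and reads of such copies can be shared. yl, yolkless, the receptor for yolk protein, had 0.0356, 0.0988 and 0.133 CPM in CycA dsRNA, 4.14, 4.57 and 4.73 CPM in Myb dsRNA and 0.0675, 0.0577 and 0.0858 CPM in GFP dsRNA libraries (-5.52, SE 0.223). The meiotic gene hdm had 0.534, 0.839 and 0.48 CPM in CycA dsRNA, 23.6, 25.2 and 22.3 CPM in Myb dsRNA and 0.472, 0.606 and 0.372 CPM in GFP dsRNA libraries (-5.22, SE 0.132). All 3 genes were under 1 CPM in every CycA dsRNA and GFP dsRNA library and above 4 CPM in every Myb dsRNA library. The 4 germline markers vas, nos, osk and bam summed to 14.1 to 16.6 CPM in CycA dsRNA, 23.7 to 25.1 CPM in Myb dsRNA and 9.9 to 11.1 CPM in GFP dsRNA libraries, and their part in these differences was not tested.

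Of 39 listed oogenesis and germline genes, 31 passed the filter, and of these 17 were lower (54.8%, against 14.5% of all genes) and 0 higher, with a median log2 fold change of -0.59. The GFP dsRNA mean was below both knockdowns for 10 of the 17. A gene of this list could pass the filter through its Myb dsRNA libraries alone. The gap junction gene zpg had -4.08, the eggshell gene fs(1)N -3.41, the translational repressor bru1 -2.40, and nos, nanos, -1.82. nos was at 1.39, 0.988 and 1.23 CPM in CycA dsRNA, 3.93, 3.92 and 4.63 CPM in Myb dsRNA and 1.12, 1.27 and 1.43 CPM in GFP dsRNA libraries. The maternal gene bcd itself, chosen after its values were seen, had 2 counts in all CycA dsRNA and 44 in all Myb dsRNA libraries, with none in GFP dsRNA libraries, a scaled ratio of 20.1 for Myb dsRNA over CycA dsRNA (95% exact interval 5.25 to 171, for counting error only). Other members were not called: the helicase vas had 0.05, tud 0.14, stau -0.04 and egl -0.04 on the log2 scale.

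The piRNA pathway, which silences transposons in the gonad, had 11 of 24 genes lower (45.8%, against 14.5% of all genes) and 0 higher (median log2 fold change -0.37). piwi was at 0.926, 1.04 and 1.04 CPM in CycA dsRNA, 3.09, 2.97 and 2.5 CPM in Myb dsRNA and 2.7, 2.83 and 3.35 CPM in GFP dsRNA libraries (-1.49, SE 0.153), with Myb dsRNA and GFP dsRNA libraries overlapping. cuff, a factor of germline piRNA clusters, had 3.63, 3.65 and 3.55 CPM in CycA dsRNA, 9.44, 9.11 and 10.4 CPM in Myb dsRNA and 4.75, 5.37 and 5.41 CPM in GFP dsRNA libraries (-1.42). In Myb dsRNA libraries piwi thus lay at the control level and cuff above it. The slicer genes aub (-0.12) and AGO3 (0.31) were not called. Of 10 tested genes of the male germline, 5 were lower, led by topi (-1.78), and 1, can (1.56), was higher.

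Most of the other genes with the lowest log2 fold changes are known by number. CG17625 had 0, 0.0247 and 0.0267 CPM in CycA dsRNA, 5.28, 5.65 and 5.84 CPM in Myb dsRNA and 0.09, 0.0866 and 0.0286 CPM in GFP dsRNA libraries, that is, 2 counts against 647, a scaled ratio of 296 for Myb dsRNA over CycA dsRNA (95% exact interval 81.5 to 2450, for counting error only). CG1571 (-6.62), CG6927 (-6.21), CG43191 (-6.08), CG4318 (-5.29), CG31100 (-5.28), CG13949 (-5.26) and the antisense RNA asRNA:CR45806 (-5.07) completed this set with CG14516. CG14516 was the most counted of them, with 4.73, 4.07 and 3.52 CPM in CycA dsRNA, 134, 137 and 130 CPM in Myb dsRNA and 1.44, 1.53 and 1.17 CPM in GFP dsRNA libraries (-5.04, SE 0.0738), so that CycA dsRNA libraries were above the control too. tHMG2, an HMG box gene chosen after its values were seen, had no count in any CycA dsRNA or GFP dsRNA library and 186 counts over the Myb dsRNA libraries, at least 56.7-fold higher in Myb dsRNA than the limit of 3 counts over the CycA dsRNA libraries. ND-B8, a respiratory complex I gene by its name, had 2 counts against 130.

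A different pattern was seen in NANS, the sialic acid synthase, which was at 2.21, 2.62 and 2.51 CPM in CycA dsRNA, 22.9, 23.6 and 23.7 CPM in Myb dsRNA and 14.2, 15.8 and 15.1 CPM in GFP dsRNA libraries (log2 fold change -3.24, SE 0.0788). The nuclear envelope gene kuk, kugelkern, chosen after its values were seen, had 5.3, 5.18 and 4.94 CPM in CycA dsRNA, 42.4, 45.4 and 39.3 CPM in Myb dsRNA and 31, 32.4 and 33.1 CPM in GFP dsRNA libraries (-3.04). For these the control lies between the knockdowns and nearer to Myb dsRNA. Of the most counted genes that were lower, the chromatin proteins Df31 and HmgD behaved alike. Df31, a histone-binding decondensation factor, had 820, 804 and 834 CPM in CycA dsRNA, 2220, 2260 and 2320 CPM in Myb dsRNA and 1530, 1420 and 1430 CPM in GFP dsRNA libraries (-1.47, SE 0.0512), and HmgD, an HMG protein of early chromatin, had 337, 319 and 322 CPM in CycA dsRNA, 1120, 1130 and 1100 CPM in Myb dsRNA and 702, 640 and 678 CPM in GFP dsRNA libraries (-1.78, SE 0.05).

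Among genes that every cell uses, most lists held few calls, against 15.4% higher and 14.5% lower over all genes. Of 88 cytosolic ribosomal protein genes, 0 were higher and 5 lower, and the 5, RpS5b (-1.83), RpL22-like, RpL37b (-0.99), RpS19b (-0.69) and RpLP0-like (-0.59), are minor paralogs or relatives of the main genes. RpL37b lay below 1 CPM in every library and its call is lost with DESeq2, without CycA dsRNA replicate 1 or without Myb dsRNA replicate 3. Of 34 proteasome genes 1 was higher, the paralog Rpt3R (0.83), and of 62 nuclear genes of oxidative phosphorylation 2 were lower, ND-B8 and ND-19 (-0.55), of which 1 was left without CycA dsRNA replicate 3 (ND-19 at -0.49) or with the exon length trend removed (-0.47). Mitochondrial ribosomal protein genes stood apart from these, with 32 of 72 lower (44.4%, against 14.5% of all genes) and 0 higher. Their median log2 fold change was -0.48. The libraries did not overlap, lower in CycA dsRNA, for 66 of the 72, against 38.3% of all genes. mRpL55 had 13.7, 14.6 and 13.7 CPM in CycA dsRNA, 34.2, 33.4 and 33.3 CPM in Myb dsRNA and 40.5, 46.4 and 43.4 CPM in GFP dsRNA libraries (-1.26, SE 0.0591). Summed, the list was at 2030 ± 44.6 CPM in CycA dsRNA, 2790 ± 35.7 CPM in Myb dsRNA and 3330 ± 182 CPM in GFP dsRNA cells (mean ± SD, n = 3 each).

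Neuron and muscle genes were examined since S2 cultures should lack both cell types. Among 8 neuron genes, brp (0.53) and cac (0.51) were higher and ChAT (-1.76) lower, all at under 2 CPM in every library. DESeq2 called neither brp nor cac. The call of brp is also lost without CycA dsRNA replicate 1 or 2 or Myb dsRNA replicate 3, and that of cac without any one of 7 of the 9 libraries. Among 11 muscle genes, sls, the giant titin-like protein, was at 53.9, 49.9 and 50.3 CPM in CycA dsRNA, 18.2, 18.4 and 17.7 CPM in Myb dsRNA and 12.2, 8.48 and 11 CPM in GFP dsRNA libraries and was called higher, Mhc was higher at under 2 CPM (1.35), and bt, a projectin, had 0.534, 0.617 and 0.774 CPM in CycA dsRNA, 3.64, 3.66 and 4.01 CPM in Myb dsRNA and 0.202, 0.0866 and 0.257 CPM in GFP dsRNA libraries (-2.53). By share, 25.0% of the neuron and 18.2% of the muscle genes were higher, against 15.4% of all genes. In the same order 12.5% and 9.09% were lower, against 14.5% of all genes. Each share rests on 1 or 2 genes, so that neither list as a whole is a result. Members not called include Syx1A, Tm1 and Zasp52. Their means were 162, 672 and 496 CPM in CycA dsRNA, 132, 629 and 404 in Myb dsRNA and 93.1, 605 and 224 in GFP dsRNA libraries.

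The control level was then set beside every gene called, to show which knockdown lay near it. A knockdown was taken as near the control when its mean was within 0.5 of the GFP dsRNA mean on the log2 scale, after adding 0.05 CPM to both. Of the 1426 genes higher in CycA dsRNA, the GFP dsRNA level was near Myb dsRNA alone for 707 (49.6%), near CycA dsRNA alone for 153 (10.7%) and near neither for 414. Of the 1339 genes lower in CycA dsRNA, it was near Myb dsRNA alone for 523 (39.1%), near CycA dsRNA alone for 287 (21.4%) and near neither for 319. Over all genes tested, 20.7% were near Myb dsRNA alone and 7.29% near CycA dsRNA alone. In both directions more of the called genes had a control level like that of Myb dsRNA iECs, and the surplus was smaller among genes lower in CycA dsRNA. Genes not called leaned the same way, with 677 near Myb dsRNA alone and 233 near CycA dsRNA alone. So did all genes tested, with 1907 and 673. As a ratio of these counts, the lean was stronger than over all genes for genes called higher (707 to 153). For genes called lower (523 to 287) it was weaker than over all genes. The lean to Myb dsRNA is therefore not particular to called genes. The GFP dsRNA mean lay outside the range of the knockdowns on the lower side for 707 of the genes called higher and 336 of those called lower, and on the upper side for 69 and 361. These shares use the same libraries that chose the genes and carry no test.

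**Figure D5:**
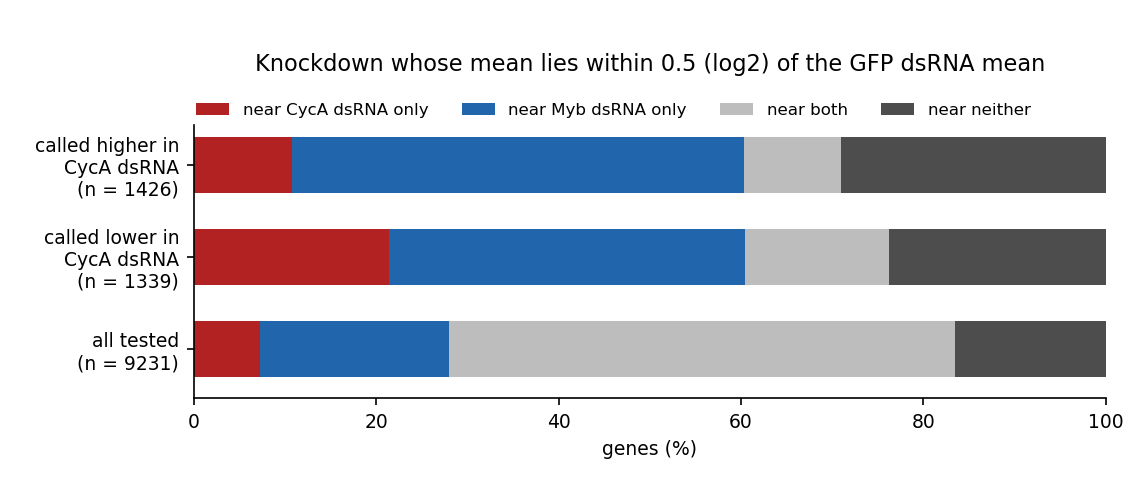
Share of genes (x axis, %) by which knockdown mean lay within 0.5 on the log2 scale of the GFP dsRNA mean, for genes called higher in CycA dsRNA (n = 1426), called lower (n = 1339) and all tested (n = 9231). Near Myb dsRNA alone is the largest class among called genes in both directions, 49.6% and 39.1%, while near both is the largest class over all genes.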

How the data were processed

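RNA-Seq libraries of S2-DGRC cells given CycA, Myb or GFP dsRNA were analysed, 3 of each, grouped by their titles; the study calls them biological replicates. Per the labels and methods, the authors checked reads with FastQC 0.11.5, mapped them with STAR 2.6.1a to the fly genome and counted them with featureCounts. The count table the authors deposited holds whole, raw counts for 17493 genes, not normalized. Columns in which the authors give their own comparisons with GFP dsRNA (log2 fold changes, p-values) were not used. In that file, 5 symbols stored as dates were restored from identifiers. Positions are those of BDGP6.54, to which 17372 genes matched by identifier, 98.9% with the same exon length. Whether strand was used in counting is not given in the sources used here, so genes overlapping on opposite strands may share reads. Of the genes named, these include rgn, He, yin, Klp67A, glu, dup, Cdk2, lok, PGRP-SD, piwi, cuff, sls, NANS, CG14516 and asRNA:CR45806.

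The tests used edgeR 4.0.16 (R 4.3.3): filterByExpr with a minimum count of 10, TMM factors, one model of 3 groups over all 9 libraries, the contrast CycA dsRNA minus Myb dsRNA with the quasi-likelihood test, and Benjamini-Hochberg adjustment over 9231 genes. Calls needed an adjusted p below 0.05 and a log2 difference of 0.5 or more in either direction, as in the study's methods. SE was derived as the size of the log2 fold change divided by the square root of the quasi-likelihood F statistic. For genes with few counts in a group it can be smaller than counting error alone. This holds for swa, yl and hdm, with 41, 10 and 67 counts over the CycA dsRNA libraries. The common biological coefficient of variation was 0.0484. Between replicates, chi-square per degree of freedom was 6.92 to 11.6 in CycA dsRNA, 2.76 to 7.89 in Myb dsRNA and 10.6 to 42.6 in GFP dsRNA, so no library was a duplicate. The GFP dsRNA values of 42.6 and 18.9 are those of the pairs with replicate 2, and without it 1467 genes were higher and 1403 lower. On data simulated for this contrast over 9231 genes, 89.4% of 66 genes changed by 0.7, 89.6% of 67 changed by 1 and 98.5% of 67 changed by 2 on the log2 scale were called, and 1 of 9031 unchanged genes. The simulation drew counts with the spread fitted here and left most genes unchanged, whereas 30.0% of genes were called in the data. Its rates therefore need not hold for the data.

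Lists of genes, 32 in all, were written from general knowledge, and 12 of their names matched no gene; members and lists were chosen with earlier results of these data known. Lists were described by counts and medians, to be read against the shares over all genes (15.4% higher, 14.5% lower) and their median of -0.02, with no test. Named genes were both targets, the 12 largest and 12 smallest log2 fold changes among calls that averaged 50 counts or more in the 6 knockdown libraries without overlap of libraries, the 6 most counted called genes in each direction, and of each list up to 4 called members with the largest change and 2 uncalled members with the highest CPM, with genes tabulated in the paper. Other names, including members listed to fill out a complex or pathway, were chosen after their values were seen. Alternatives changed the tool (DESeq2 1.42.0), scaling, filter, threshold, libraries in the fit, a trend with exon length, a replicate block, and each library left out in turn. Transcript matches of the dsRNAs and promoter motifs were not analysed here.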

Additional observations from a re-analysis of the deposited data

How the results depend on the processing

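Of the alternatives, only those that move the threshold changed a count of calls by more than 1.5 times. With no fold threshold 2904 genes were higher and 3219 lower, with a threshold of 1 on the log2 scale 624 and 458, and with glmTreat, which tests against a fold change of 0.5, 974 and 856. DESeq2 called 1374 higher and 1219 lower, of which 1350 and 1219 were also called by edgeR. Leaving out one library at a time gave 1360 to 1467 higher and 1321 to 1431 lower. A minimum count of 50 gave 1169 and 938, no filter 1577 and 1428, the 6 knockdown libraries alone 1481 and 1269, and removal of a trend with exon length 1448 and 1297. RLE factors gave 1456 and 1289, and upper-quartile factors 1423 and 1345; over all settings the median log2 fold change of all genes stayed between -0.03 and 0.00.

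The replicate numbers of the titles were not used as pairs in the main fit, since nothing says that a number marks a shared batch. The column names give replicate 3 another number than its title for CycA dsRNA and Myb dsRNA, but the same number for GFP dsRNA. The numbers of the titles are used below. Deviations of same-numbered CycA dsRNA and Myb dsRNA libraries from their group means correlated with r = 0.097, 0.002 and 0.059 over genes. For libraries with different numbers r ran from -0.079 to 0.03. All these values are small, and they do not settle whether the numbers mark pairs. With the replicate number as a block, 1424 genes were higher and 1334 lower, and with the block and the exon length trend removed 1440 and 1294.

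For 234 named genes under 22 alternatives, 5132 values were obtained, of which 0 reversed, 103 lost a call and 51 gained one. Outside the threshold settings the calls lost were those of Nnf1a, brp, cac, RpL37b, ND-19, mt:CoIII, nod, smt3, spen, Mapmodulin and Hml, and those gained were GstE6 and ImpL2; the cause was not tested. Depth limits genes under about 1 CPM most, but 1 library could decide a call at any level. RpL37b, under 1 CPM, lost its call without CycA dsRNA replicate 1. So did mt:CoIII without CycA dsRNA replicate 3, with means of 3290 CPM in CycA dsRNA and 2290 CPM in Myb dsRNA.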
